A study of Homo sapiens with 4 samples.

Results

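The NF-κB family was described here as 10 genes, the 5 that encode the DNA-binding subunits (NFKB1, NFKB2, RELA, RELB and REL) and 5 that encode IκB proteins (NFKBIA, NFKBIB, NFKBIE, NFKBIZ and BCL3). They were chosen by name, with earlier results of these data known. They are the rows of the deposited count table whose Ensembl identifier maps to a listed symbol. All 10 were found among the 20263 genes of the table, and all 10 passed the filter on low counts that left 13744 genes for testing. RNA was sequenced from cells of the established triple-negative breast cancer line MDA-MB-231 after 24 h with RB-BC, which the series title calls a derivative of ribociclib, or with the vehicle DMSO. Ribociclib inhibits the cell cycle kinases CDK4 and CDK6. Each treatment had 2 libraries, RB-BC 1 and RB-BC 2 against DMSO 1 and DMSO 2. All cells were grown in DMEM with 10% fetal bovine serum, and everything reported comes from this single line. The protocol text names the compound Rib_CA, it is not stated whether that is RB-BC, and no dose is given.

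NF-κB factors are dimers built from the subunits. RELA, RELB and REL carry a transactivation domain, whereas NFKB1 and NFKB2 encode the precursors p105 and p100, which are processed to p50 and p52. In resting cells the classical IκB proteins IκBα (NFKBIA), IκBβ (NFKBIB) and IκBε (NFKBIE) hold dimers in the cytoplasm until IκB kinase marks them for destruction. The nuclear IκB proteins IκBζ (NFKBIZ) and BCL3 instead bind p50 or p52 dimers on chromatin and change which genes they drive. Several family genes, NFKBIA above all, are themselves known NF-κB target genes, which makes the pathway a feedback circuit. In breast cancer, constitutive NF-κB activity is a known feature of triple-negative lines.

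Because the family is known to be controlled through κB sites, the 10-base elements that NF-κB dimers bind, the start-proximal DNA of the genes is shown before their transcript levels. RefSeq windows of 300 bases on GRCh38.p14, from 250 bases before to 50 bases after an annotated start, were matched by symbol for 8 of the 10 genes, which have 14 windows in all. RELB and NFKBIE had no window in that table. The κB consensus, searched on both strands, matched at 15 positions, some of them overlapping, in 9 of the 14 windows (64.3%) and in 7 of the 8 genes. Among all 35114 windows of the same length 11.3% held a match. The whole window of NFKBIA is printed because NFKBIA is the textbook feedback gene of the pathway, with the κB match in capitals. It lies at chr14:35404700-35404999 on the minus strand and reads 5′ to 3′ along the gene.
NFKBIA: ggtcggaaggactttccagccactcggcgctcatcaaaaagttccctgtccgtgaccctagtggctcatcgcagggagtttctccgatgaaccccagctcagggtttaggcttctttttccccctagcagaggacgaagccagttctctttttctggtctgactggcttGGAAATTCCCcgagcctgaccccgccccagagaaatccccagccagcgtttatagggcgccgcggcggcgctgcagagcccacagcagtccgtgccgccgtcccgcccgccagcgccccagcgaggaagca

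A κB match of each of the other 6 genes that had one is given with 10 flanking bases on each side, again with the match in capitals, to show how alike the elements are. NFKB2 is given with 1 match from each of 2 alternative starts.
NFKB1, chr4:102501300-102501329, plus strand: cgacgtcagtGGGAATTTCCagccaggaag
NFKB2, chr10:102394461-102394490, plus strand: gaaacgtcatGGGAATTCCCccctccgggg
NFKB2, chr10:102395674-102395703, plus strand: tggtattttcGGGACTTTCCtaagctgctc
NFKBIZ, chr3:101827757-101827786, plus strand: tttttggtctGGGAATTTCCagtgtgcaga
BCL3, chr19:44748700-44748729, plus strand: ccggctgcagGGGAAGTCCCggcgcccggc
REL, chr2:60881517-60881546, plus strand: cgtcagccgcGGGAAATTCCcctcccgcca
NFKBIB, chr19:38899931-38899960, plus strand: gggcgtggtgGGGAATTTCCcgcagggcgg

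The same 10 letters, GGGAATTTCC, stood in windows of NFKB1, NFKBIZ and NFKBIB, and their reverse complement, GGAAATTCCC, in those of NFKBIA and REL, so 5 genes held this element on one strand or the other. Most of the printed matches lay close before the start: the first base of the match was 81 bases upstream in NFKBIA, 49 in NFKB1, 47 in REL, 28 in NFKBIB and 21 in the third NFKB2 window. It was 107 in the second NFKB2 window. Matches not printed lay up to 239 bases upstream, in the other NFKBIZ window, and 1 of NFKBIB began at base 39 after the start. The distances thus depend partly on which match was printed. In BCL3 the match began at base 3 after the start, and in the upstream NFKBIZ window it was 223 bases before it. The 2 RELA windows held no κB consensus match. A looser pattern of the same length with free inner bases, which overlaps the consensus, matched 13 of the 14 windows, 1 of RELA among them, against 25.6% of all windows. These are matches of letters and not measured binding.

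DMSO 2 stood apart from the other libraries, and some of the results that rest on it are given with and without it. Library totals were 42786422 and 42752387 counts with RB-BC and 34774542 and 37754168 with DMSO. Transcripts encoded by mitochondrial DNA made up 10.1% and 10.3% of the RB-BC counts, 8.68% of those of DMSO 1 and 21.7% of those of DMSO 2, with Wilson 95% bounds of 8.67% and 8.69% for DMSO 1 and 21.68% and 21.71% for DMSO 2 that cover counting error only. The cell line markers CD44, EGFR, VIM, KRT8 and KRT18 were all detected, with summed levels of 7180 and 7528 unscaled CPM with RB-BC and 5529 and 5655 with DMSO. Most of the sum was VIM, with 226660 and 239563 counts with RB-BC and 124373 and 139013 with DMSO. The markers did not move together. Log2 fold changes, RB-BC over DMSO, were 0.52 for VIM, −0.01 for CD44, 0.01 for EGFR, −0.38 for KRT8 and −0.53 for KRT18. None of them passed edgeR's test. Of 4 leucocyte markers CD3E had no count and the summed level was 1.66 to 2.08 with RB-BC and 0.848 to 1.15 with DMSO. Summed levels were 2.20 to 2.29 with RB-BC and 0.768 to 1.47 with DMSO for 3 endothelial markers, 2.27 to 2.48 and 1.56 to 3.16 for 3 fibroblast markers, where DCN had no count, and 17.0 to 19.9 and 17.7 to 23.7 for 4 luminal markers. A fit with mitochondrially encoded genes removed called 6 members higher and 0 lower, as did the fit that kept them. In it 8.77% of all genes tested were called higher. Any other part of these differences in the results was not tested.

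After RB-BC, 6 of the 10 genes rose, namely NFKBIZ, NFKBIA, RELB, NFKBIE, NFKB2 and BCL3. None fell with edgeR or DESeq2, and no member had a fitted value below 0. The rises ranged from 2.08-fold for BCL3 to 9.37-fold for NFKBIZ. RELA, NFKB1, REL and NFKBIB did not pass the test, at fitted folds from 1.17 to 1.45. Calls are from edgeR's quasi-likelihood test on all 13744 genes with a Benjamini-Hochberg adjusted p under 0.05. By the same rule 8.58% of all genes tested were called higher and 7.53% lower, 16.1% in all. The median log2 fold change was 1.36 over the 10 genes, against −0.0016 over all genes tested. Because the members were chosen with earlier results of these data known, these contrasts with all genes are descriptions. In 9 of the 10 genes the libraries of the treatments did not overlap, with RB-BC above DMSO, but that was so, in either direction, for 65.2% of all genes tested. In these bulk samples more cells with a transcript and more transcript per cell cannot be told apart.

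**Figure D1:**
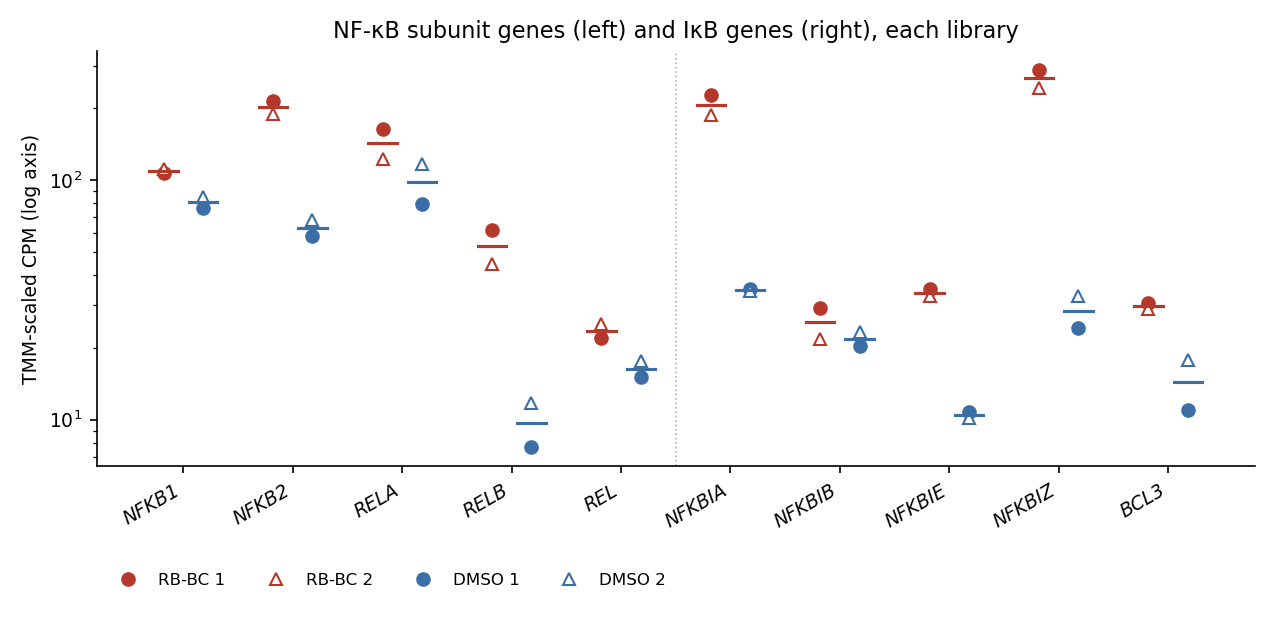
TMM-scaled CPM (log axis) of the 10 genes in each library, RB-BC left of DMSO, with a bar at the mean of each treatment (n = 2). Only for NFKBIB do the libraries of the treatments overlap, and the widest gaps are at NFKBIZ, NFKBIA and RELB.

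The largest rise among the members was in NFKBIZ (ENSG00000144802), which encodes the nuclear protein IκBζ. NFKBIZ had 12571 and 10668 counts in RB-BC 1 and RB-BC 2, against 910 and 1098 in DMSO 1 and DMSO 2. As CPM, counts relative to library size, scaled by TMM, these were 290 and 243 CPM with RB-BC and 24.2 and 32.8 CPM with DMSO. The lower RB-BC library was thus far above the higher DMSO library. The log2 fold change was 3.23 ± 0.21 (SE; 95% interval 2.70 to 3.75; edgeR adjusted p = 0.00378), and with 1 library left out it lay between 3.03 and 3.46.

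NFKBIA (ENSG00000100906), encoding IκBα, which shuttles RELA-containing dimers out of the nucleus, had 226 and 187 CPM with RB-BC and 35.1 and 34.4 CPM with DMSO. The DMSO libraries were nearly the same for this gene, differing by −0.03 on the log2 scale (DMSO 2 minus DMSO 1), so most of the spread lay between the RB-BC libraries. Its log2 fold change was 2.57 ± 0.16 (SE; edgeR adjusted p = 0.00378), or 5.95-fold. NFKBIA ranked 11th of the 13744 genes by p-value, NFKBIZ 18th, NFKBIE 63rd, NFKB2 89th and RELB 160th.

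The other classical IκB genes differed from each other. NFKBIE (ENSG00000146232), encoding IκBε, had 35.0 and 32.7 CPM with RB-BC and 10.7 and 10.2 CPM with DMSO. With both pairs tight, its rise of 1.69 ± 0.15 (log2, SE; edgeR adjusted p = 0.00675) had the second smallest error of the 10 genes. NFKBIB (ENSG00000104825), encoding IκBβ, had 29.3 and 21.7 CPM with RB-BC and 20.3 and 23.2 CPM with DMSO. Here RB-BC 2 lay between the DMSO libraries, and the log2 difference of 0.23 did not pass (95% interval −0.25 to 0.71; edgeR adjusted p = 0.439). The interval leaves room for a rise of NFKBIB, though not for one of the size seen in NFKBIA or NFKBIE, whose intervals begin at 2.17 and 1.32. In GENCODE 29, NFKBIB shares 40 exonic bases with SIRT2 on the opposite strand, and since the strand setting of the counting is not given, reads there cannot be told apart.

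BCL3 (ENSG00000069399), the second nuclear IκB gene, which was named for a translocation breakpoint in B-cell leukaemia, had 30.6 and 29.02 CPM with RB-BC and 11.0 and 17.8 CPM with DMSO. The RB-BC pair was close, while the DMSO libraries were 0.69 apart on the log2 scale, the widest DMSO gap of the 10 genes. Its log2 fold change was 1.05 ± 0.25 (SE; edgeR adjusted p = 0.0399), close to the threshold. Both RB-BC libraries were needed for this call, with an adjusted p by edgeR of 0.17 when RB-BC 1 was left out and 0.101 when RB-BC 2 was, and the log2 value was 0.75 without DMSO 1 and 1.44 without DMSO 2.

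Among the subunits, RELB and NFKB2, whose products p52 and RelB form the dimer of the non-canonical arm, were the members that rose. RELB (ENSG00000104856) had 2686 and 1965 counts with RB-BC, against 288 and 393 with DMSO. These corresponded to 61.9 and 44.8 CPM with RB-BC and 7.65 and 11.7 CPM with DMSO. Within each treatment the libraries differed by a similar amount, −0.47 between the RB-BC libraries and 0.62 between the DMSO libraries (log2, replicate 2 minus replicate 1), and both gaps were small beside the difference between treatments. The log2 fold change was 2.46 ± 0.27 (SE; 5.51-fold; edgeR adjusted p = 0.00881). It was 2.19 without DMSO 1 and 2.80 without DMSO 2.

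NFKB2 (ENSG00000077150), encoding p100 and its product p52, had 215 and 189 CPM with RB-BC and 58.4 and 68.1 CPM with DMSO. Its log2 fold change was 1.67 ± 0.16 (SE; 3.18-fold; edgeR adjusted p = 0.00696). NFKB1 (ENSG00000109320), encoding p105 and p50, had 107 and 111 CPM with RB-BC and 76.6 and 85.0 CPM with DMSO. Both RB-BC libraries lay above both DMSO libraries for NFKB1, yet the log2 difference of 0.43 (95% interval 0.09 to 0.77) missed the threshold after adjustment over all genes (edgeR adjusted p = 0.0859). DESeq2 did call NFKB1 (adjusted p = 0.0497), as did edgeR when DMSO 2 was left out (adjusted p = 0.0376).

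RELA (ENSG00000173039), encoding p65, the main transactivating subunit of the canonical arm, had 164 and 122 CPM with RB-BC and 79.5 and 117 CPM with DMSO. RB-BC 2 and DMSO 2 were thus almost level. The log2 difference was 0.54 (95% interval −0.05 to 1.13; edgeR adjusted p = 0.17), and leaving out DMSO 2 made it 0.85 (edgeR adjusted p = 0.0406), leaving out DMSO 1 0.29. REL (ENSG00000162924), encoding c-Rel, a subunit best known from lymphocytes, had 22.0 and 25.0 CPM with RB-BC and 15.03 and 17.6 CPM with DMSO. Its log2 difference of 0.53 (95% interval 0.12 to 0.94; edgeR adjusted p = 0.0828) passed without DMSO 2 (0.64; edgeR adjusted p = 0.041). In GENCODE 29, 5702 of the 13170 exonic bases of REL, over all its transcripts, are shared with the non-coding gene AC010733.2 on the same strand. That gene has no row, so counts and RPKM of REL may include its reads. Smaller overlaps with genes that have no row are 65 bases of BCL3 with MIR8085 and 9 bases of RELA with AP001362.2.

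**Figure D2:**
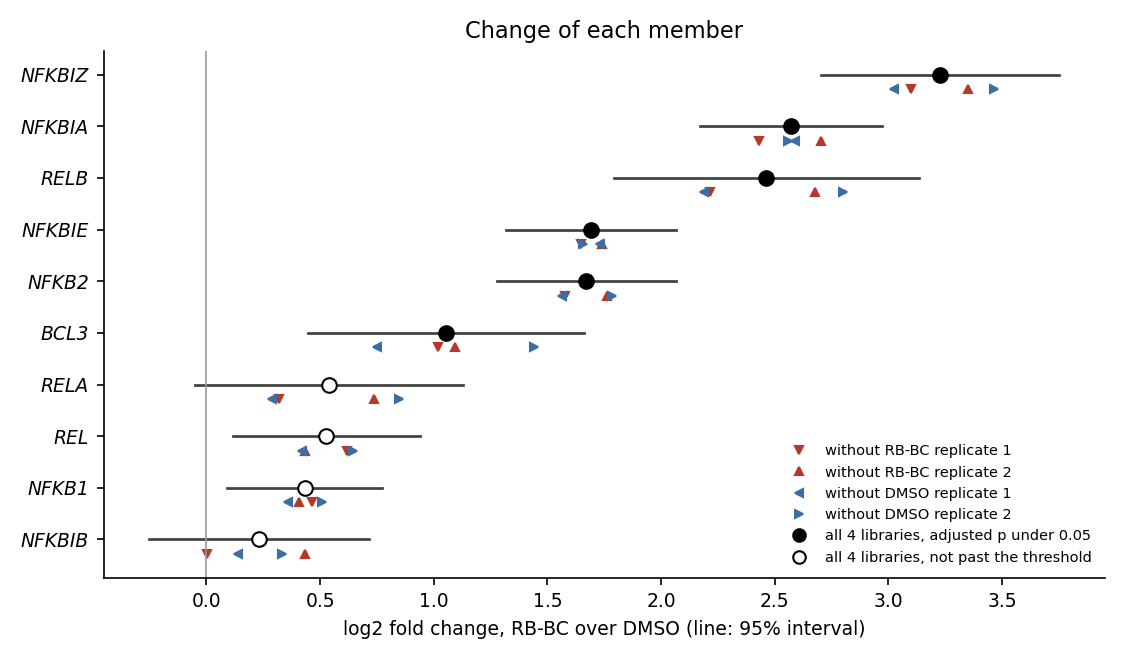
Log2 fold change of each gene, RB-BC over DMSO, with its 95% interval from edgeR; filled circles passed an adjusted p of 0.05, and triangles give the value with 1 library left out. NFKBIZ, NFKBIA and RELB lie above 2, and of the 4 open circles the intervals of RELA and NFKBIB include 0.

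The RB-BC libraries differed by a median of 0.14 and the DMSO libraries by 0.27 (absolute log2) over all genes tested, and each pair by 0.22 over the 10 members. Of the 10 genes, 9 passed as higher without DMSO 2 and 6 without DMSO 1, with the rest of the table also gaining calls, to 26% and 23.1% of genes tested. Leaving out RB-BC 1 or RB-BC 2 gave 5 members each, when 1.47% and 3.23% of genes tested passed.

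Levels were compared between genes only per length, as TMM-scaled CPM per kilobase of exon (RPKM). With RB-BC the order ran from NFKBIA (109 ± 14.7 RPKM, SD, n = 2) through NFKBIZ (63.6 ± 7.83), NFKB2 (54.7 ± 4.98), RELA (42.2 ± 8.65), RELB (23.2 ± 5.25), NFKB1 (19.7 ± 0.531), BCL3 (14.6 ± 0.545), NFKBIE (13.1 ± 0.618) and NFKBIB (12.0 ± 2.51) to REL (2.09 ± 0.186). The libraries of NFKBIZ and NFKB2, of RELB and NFKB1, and of NFKBIE and NFKBIB overlapped. Within each library NFKBIZ was above NFKB2, at 69.1 against 58.2 RPKM in RB-BC 1 and 58.1 against 51.2 in RB-BC 2. With exons of all annotated transcripts as the length, their means were nearly level, at 45.2 and 44.9. The order of RELB and NFKB1, and that of NFKBIE and NFKBIB, changed between the RB-BC libraries. With DMSO the order ran from RELA (29.03 ± 7.86 RPKM, SD, n = 2) through NFKBIA (18.3 ± 0.265), NFKB2 (17.2 ± 1.86), NFKB1 (14.6 ± 1.07), NFKBIB (10.2 ± 0.969), BCL3 (7.05 ± 2.35), NFKBIZ (6.79 ± 1.45), RELB (4.21 ± 1.25) and NFKBIE (4.06 ± 0.144) to REL (1.45 ± 0.160). In DMSO the overlapping neighbours were NFKBIA and NFKB2, BCL3 and NFKBIZ, and RELB and NFKBIE. REL was lowest in either treatment, with a long exon union of 11255 bases. With exons of all annotated transcripts as the length, a choice made after seeing the data, BCL3 came after NFKBIE and NFKBIB in the RB-BC order, while in DMSO NFKBIZ moved ahead of BCL3 and NFKBIE ahead of RELB.

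The make-up of the family differed between the treatments. NFKBIA made up 30.9% and 30.5% of the summed RPKM of the 10 genes with RB-BC, against 18.3% and 14.5% with DMSO. NFKBIZ made up 17.9% and 18.0% with RB-BC and 5.70% and 6.27% with DMSO. RELA, the largest single share in DMSO at 23.2% and 27.8%, was at 12.5% and 11.2% with RB-BC. In NFKB2 the share hardly moved, at 15.1% and 15.9% with RB-BC and 15.7% and 14.8% with DMSO, so that its rise kept pace with the sum. Shares add to a fixed total, so a lower share does not mean a lower level: RELA, NFKB1 and NFKBIB had lower shares with RB-BC without a lower mean RPKM.

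**Figure D3:**
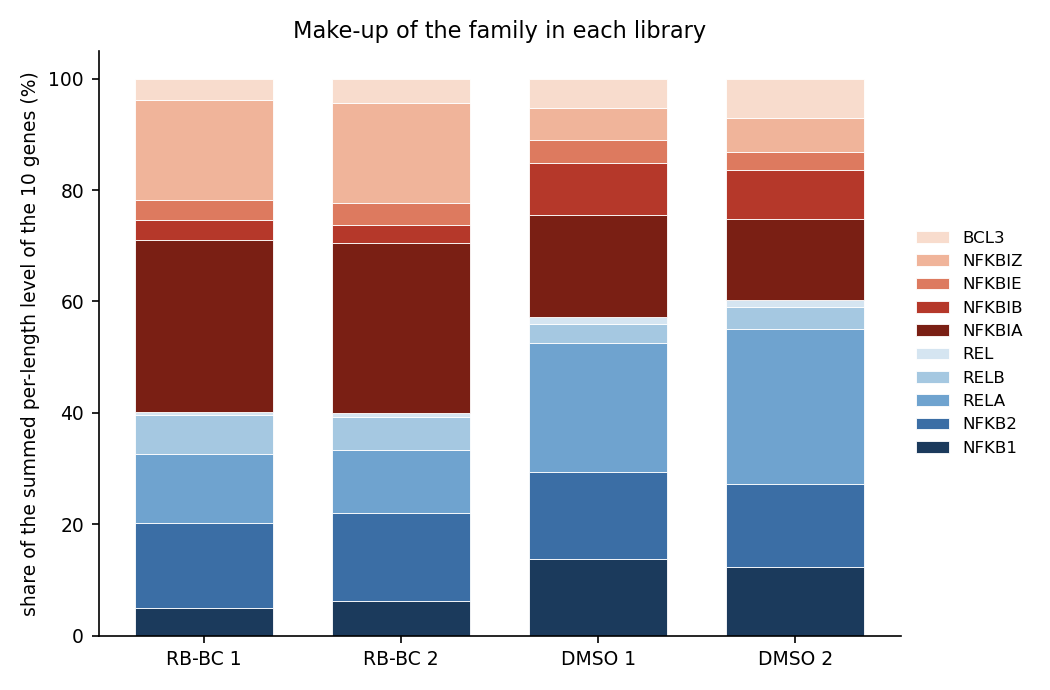
Share of each gene in the summed RPKM of the 10 genes (%), for each library, subunit genes in blue and IκB genes in red. The red part is larger in the RB-BC bars, through NFKBIA and NFKBIZ, and RELA takes a smaller share there.

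Ratios of counts within a library do not depend on how libraries were scaled. The value of a ratio depends on the lengths of the genes, but between single genes the length cancels from its difference between treatments, which is the quantity compared here. There were 1.38 and 1.53 NFKBIA counts per RELA count with RB-BC, against 0.441 and 0.293 with DMSO. The log2 difference between treatments was 2.01. Per length, NFKBIA was above RELA with RB-BC (119 and 98.3 RPKM for NFKBIA, 48.3 and 36.1 for RELA) and below it with DMSO (18.5 and 18.1 for NFKBIA, 23.5 and 34.6 for RELA). RELB counts per RELA count were 0.378 and 0.367 with RB-BC and 0.0962 and 0.1001 with DMSO, a log2 difference of 1.92 with SDs of 0.03 for RB-BC and 0.04 for DMSO. Although RELA and RELB each varied between replicates, their ratio was nearly the same in libraries of a treatment.

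For the precursor genes, NFKB2 counts per NFKB1 count were 2.01 and 1.70 with RB-BC and 0.763 and 0.802 with DMSO. The log2 difference between treatments was 1.24. Per length, NFKB2 was above NFKB1 in every library, at 58.2 and 51.2 RPKM against 19.4 and 20.1 for NFKB1 with RB-BC, and at 15.9 and 18.5 RPKM against 13.9 and 15.4 with DMSO. Between IκB genes, NFKBIZ counts per NFKBIB count were 9.90 and 11.2 with RB-BC and 1.19 and 1.41 with DMSO (log2 difference 3.02). Over the 5 IκB genes together there were 1.07 and 1.04 counts per count of the 5 subunit genes with RB-BC and 0.427 and 0.395 with DMSO (log2 difference 1.37), sums in which gene lengths do not cancel. None of the 5 ratios overlapped between treatments, but neither did 65.2% of all genes tested, taken singly. Each ratio between single genes put one that rose over one that did not pass, so its direction restates the fold changes above. With 2 against 2 libraries an exact two-sided permutation test cannot give a p below 0.333, which is the value of each ratio, so these are descriptions.

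**Figure D4:**
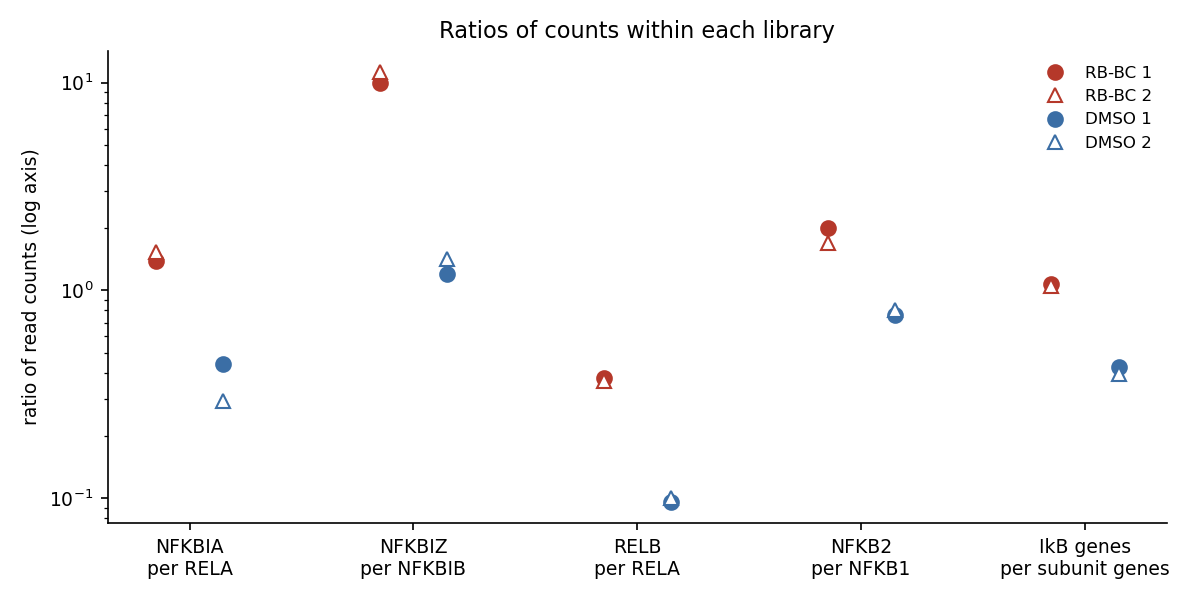
Ratios of read counts between members within each library (log axis), RB-BC left of DMSO. Every ratio is higher in both RB-BC libraries than in both DMSO libraries; since lengths differ, heights are not compared between ratios, nor with equality.

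Other genes of the pathway were counted from lists of textbook members, also chosen with earlier results of these data known. Of 11 genes of the IκB kinase (IKK) complex and kinases around it, 2 rose and 0 fell by edgeR's test, 1 being lower at an unadjusted p under 0.05 (median log2 fold change 0.07); DESeq2 called 0 lower, and 8.58% of all genes tested were called higher. The catalytic and regulatory IKK subunits did not pass: CHUK (IKKα) was at −0.58 (95% interval −1.16 to −0.01), IKBKB (IKKβ) at −0.08 (−0.44 to 0.28) and IKBKG (NEMO) at −0.03 (−0.60 to 0.55). The genes that rose were IKBKE, an IKK-related kinase of interferon signalling, with 54.9 and 42.1 CPM with RB-BC and 21.1 and 22.3 CPM with DMSO, and MAP3K8, a kinase that p105 binds, with 13.5 and 11.4 CPM against 6.21 and 5.79 CPM. IKBKE was not called when RB-BC 1 was left out (edgeR adjusted p = 0.112), nor MAP3K8 when either RB-BC library was (edgeR adjusted p = 0.173 and 0.076). The list then had 0 calls when RB-BC 1 was left out and 1 when RB-BC 2 was. The fit that left out DMSO 2, where 26% of all genes tested were called, had 3 higher and 1 lower.

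Of 10 genes of ubiquitin ligases and their partners in the pathway only RBCK1 rose (log2 fold change 0.93 ± 0.16, SE; edgeR adjusted p = 0.0203). RBCK1 encodes HOIL-1, a part of the linear ubiquitin chain assembly complex, and had 246 and 202 CPM with RB-BC and 112 and 124 CPM with DMSO. By edgeR's test 0 fell, 1 being lower at an unadjusted p under 0.05, while DESeq2 called 1 lower. A rise in 1 of 10 is close to the 8.58% of all genes tested. The median was 0.02, RBCK1 did not pass without either RB-BC library (edgeR adjusted p = 0.175 and 0.0668), and 4 genes passed without DMSO 2 or with DESeq2, fits that called 26% and 23.4% of all genes. BTRC and FBXW11, which encode the adaptors that recognise phosphorylated IκB, were at 0.03 and 0.03 and did not pass.

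Of 13 genes that restrain the pathway, 4 rose and 0 fell by edgeR's test (median 0.22). Also at an unadjusted p under 0.05 and with DESeq2, 0 fell. Among all genes tested 8.58% were called higher and 7.53% lower. TNFAIP3, encoding the ubiquitin-editing enzyme A20, had 73.3 and 70.8 CPM with RB-BC and 7.57 and 12.1 CPM with DMSO (2.87 ± 0.25, log2, SE). ZC3H12A, encoding the RNase Regnase-1, had 101 and 80.7 CPM with RB-BC and 5.47 and 10.9 CPM with DMSO (3.48 ± 0.35). TNIP1 and TNIP3, which encode A20-binding proteins, rose by 1.81 ± 0.25 and 1.99 ± 0.28. Both missed the threshold when RB-BC 1 was left out, at log2 values of 1.75 and 1.94. The deubiquitinase genes CYLD (0.22) and OTULIN (−0.22) did not pass. Without DMSO 2 the log2 values were 3.25 for TNFAIP3, 4.05 for ZC3H12A, 2.18 for TNIP1 and 2.24 for TNIP3. Without DMSO 1 they were 2.57, 3.07, 1.51 and 1.78 in the same order.

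In the non-canonical arm, which turns p100 into p52, 1 of 11 genes rose and 1 fell (median 0.08), near the 8.58% and 7.53% of all genes tested. MAP3K14, encoding the kinase NIK that starts p100 processing, had 18.6 and 19.0 CPM with RB-BC and 51.5 and 60.4 CPM with DMSO. Both RB-BC libraries were far below both DMSO libraries, and MAP3K14 fell by 1.57 on the log2 scale (SE 0.16; edgeR adjusted p = 0.00759), opposite in direction to NFKB2 and RELB. Its call held with each library left out, at values from −1.68 to −1.45. BIRC3, encoding the ubiquitin ligase cIAP2 that takes part in NIK turnover, had 111 and 123 CPM with RB-BC and 26.4 and 23.4 CPM with DMSO (2.23 ± 0.15, log2, SE; edgeR adjusted p = 0.00408). The receptor genes LTBR (0.51, 95% interval −0.01 to 1.03) and CD40 (0.89, 95% interval 0.01 to 1.77) did not pass. The receptor genes TNFRSF13C (−1.38, 95% interval −2.72 to −0.03), TNFRSF11A (0.15) and TNFRSF12A (0.08) did not pass either. Nor did the adaptor gene TRAF3 (−0.22, 95% interval −1.25 to 0.81). Without DMSO 2, 3 genes of this list rose and 2 fell, with 26% of all genes called.

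Of 34 textbook NF-κB target genes, 29 passed the filter. By edgeR's test 23 rose, 0 fell and 6 did not pass. Also at an unadjusted p under 0.05 and with DESeq2, 0 fell. The share called higher over all genes tested was 8.58%. CCL2, and the adhesion molecule genes VCAM1 and SELE that are best known from endothelium, had no count in any library. Of the 23, CXCL10, CCL20, CSF3 and BCL2A1 had no count in DMSO, and LTB had 8 and 7. All of these passed the filter only through the RB-BC libraries, so they could hardly do other than rise. The median log2 fold change was 3.46, and 3.24 with the 4 genes without a DMSO count at lower bounds from a floor of 3 counts per library. By the rule for naming, IL1B (9662 and 5952 counts with RB-BC, 65 and 76 with DMSO), IL1A (1238 and 839, against 49 and 40) and CXCL2 (8691 and 5272, against 68 and 105), which encode cytokines and a neutrophil chemokine, stand for the list beside BIRC3. The targets CCL5 (1.74), BCL2L1 (−0.18), CFLAR (−0.07), PLAU (0.21), IRF1 (0.12) and GADD45B (0.19) did not pass. With either RB-BC library left out fewer genes of this list passed, as did fewer of all genes tested.

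IκBζ is known to be required for a subset of targets in mouse macrophages and human keratinocytes. Of 11 such genes, 6 were too low to test, DEFB4A, S100A7 and IL17C having no count in any library. The other 5 include IL6, with 231 and 125 CPM with RB-BC and 1.83 and 4.89 CPM with DMSO, and CSF2, encoding the growth factor GM-CSF, with 83.9 and 54.2 CPM against 0.956 and 2.15 CPM. CSF3 was at least 41.1-fold and CCL20 at least 25.7-fold higher with RB-BC, against a floor of 3 counts per DMSO library. LCN2, encoding the iron-binding protein lipocalin 2, also passed, with 1253 and 319 counts with RB-BC and 0 and 18 with DMSO. LCN2 lost its call with DESeq2, with limma-voom and without RB-BC 1. IL6, CSF2, CSF3 and CCL20 kept theirs in those fits, but CCL20 was not tested with the filter on a mean of at least 50 counts. CSF3 and CCL20 passed the main filter only through the RB-BC libraries, and LCN2 would not have passed on its DMSO counts alone. The calls of these genes are thus no added support. The genes IL6, CSF2, CSF3 and CCL20 are on the textbook list too. Outside the 10 members, NFKBIL1, whose protein resembles IκB in its ankyrin repeats, rose by 1.48 ± 0.17 (61.0 and 49.05 CPM with RB-BC, 19.9 and 19.4 CPM with DMSO), which missed the threshold when RB-BC 1 was left out (edgeR adjusted p = 0.0523). NFKBID, encoding the nuclear protein IκBNS, was at 0.47 (95% interval −0.34 to 1.29) with 6.02 and 3.40 CPM with RB-BC and 3.64 and 3.13 CPM with DMSO.

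**Figure D5:**
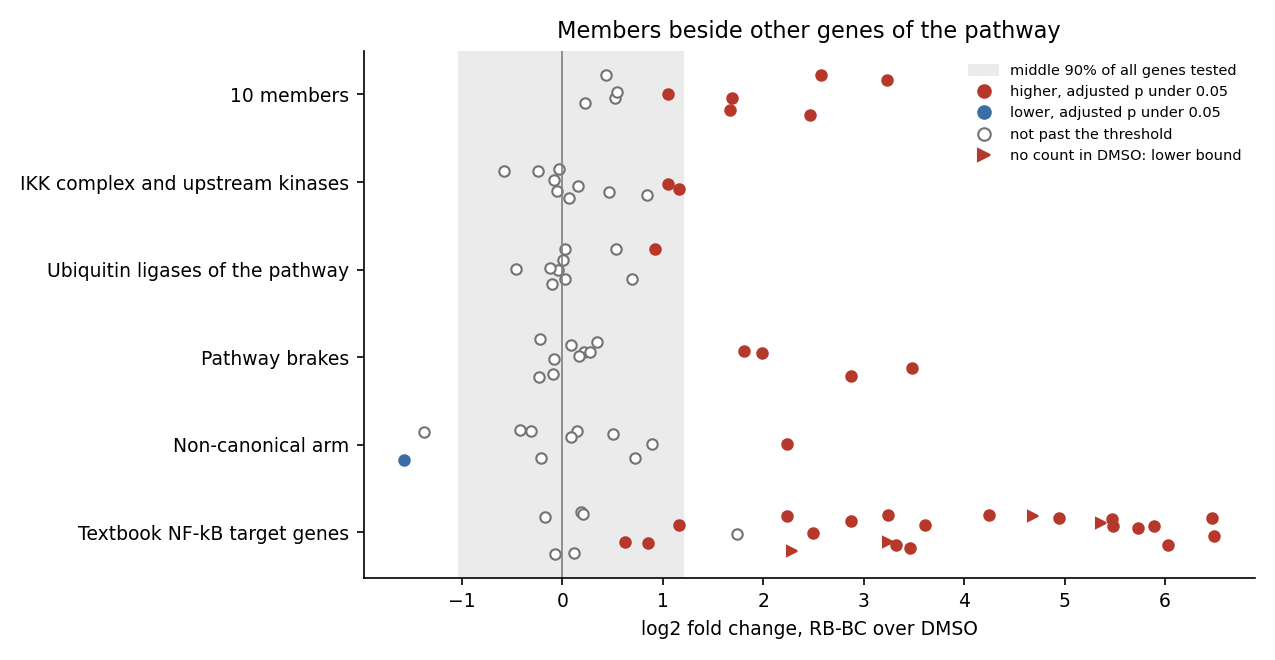
Log2 fold change, RB-BC over DMSO, of the 10 members and of each tested gene in 5 pathway lists; the grey band holds the middle 90% of all genes tested (−1.03 to 1.21). The kinases and ligases lie mostly inside the band, while 5 members and most target genes lie to its right, and MAP3K14 is the blue point.

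Among 12218 other genes with a mean of at least 50 counts, those whose pattern over the 4 libraries was nearest to NFKBIA were MT1X, ERN1, SPAG4, CTH and BBC3. The measure was the root-mean-square distance of centred log2 CPM, at 0.04 for MT1X, a metallothionein gene, 0.07 for ERN1, the endoplasmic reticulum stress sensor IRE1, 0.07 for SPAG4, 0.07 for CTH, of cysteine synthesis, and 0.08 for BBC3, encoding the pro-apoptotic protein PUMA. Like NFKBIA, each was higher in RB-BC 1 than in RB-BC 2 and nearly level between the DMSO libraries; MT1X, for example, had 174 and 149 CPM with RB-BC and 25.7 and 26.4 CPM with DMSO. With 4 libraries in 2 treatments many genes can have such a pattern.

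Set beside the promoter windows, κB matches were found both in genes that rose and in genes that did not pass. NFKBIZ, NFKBIA, NFKB2 and BCL3 rose and had 2, 1, 5 and 1 matched positions. NFKB1, REL and NFKBIB did not pass and had 1, 2 and 3, and RELA had none. Positions overlap each other in REL, NFKBIB and NFKB2, and genes differ in their number of windows, so these counts are not compared. RELB and NFKBIE, which rose, had no window. With 8 genes no test was made.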

How the data were processed

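Raw read counts of 20263 Ensembl genes in 4 libraries were deposited by the authors, as whole numbers with no normalization visible. The aligner, counting program, strand setting and annotation were not given in the sources used here. Builds named in the submitters' processing notes, GRCm38 and mm10, are mouse assemblies, but all identifiers are human, so no coordinates of the authors were used. Per the labels' protocols, mRNA libraries were made from 1.4 µg of total RNA. Symbols were looked up by Ensembl identifier (19761 genes) and GENCODE 29 (463), and 39 identifiers had none. Groups and replicate numbers are from the sample titles, and nothing says that replicates were separate cultures, so p-values reflect the spread between libraries alone, and that may be technical.

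Counts were filtered with filterByExpr (at least 10 counts, total at least 15), scaled by TMM and tested with edgeR 4.0.16 in R 4.3.3 (quasi-likelihood, two-sided, Benjamini-Hochberg over all genes, threshold 0.05), after a test on simulated data. CPM, RPKM (exon unions of GENCODE 29 basic transcripts) and ratios were computed here from the deposited counts. Intervals of a fold change rest on the model's SE. Alternatives were RLE, library totals alone, other filters, DESeq2 1.42.0, limma-voom (limma 3.58.1), a replicate block, mitochondrially encoded genes removed and each library left out. Named genes were all members, from each list up to 4 called genes by smallest adjusted p (2 where none was called) and the 5 genes nearest to NFKBIA; other genes named to complete a list were chosen after their values were seen. The members and lists were chosen with earlier results of these data known, and the lists are not independent evidence of a direction. Same-numbered replicates were checked for pairing. A chi-square over genes, divided by its degrees of freedom, was 38.8 within RB-BC and 246 within DMSO, above counting error alone. Mitochondrially encoded genes were included in it. Such a value cannot tell separate cultures from separate preparations of the same RNA. Libraries were counted as separate samples without evidence on that point. A further leucocyte marker is not reported here.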

Additional observations from a re-analysis of the deposited data

How the results depend on the processing

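Of 120 recomputed member log2 fold changes, 114 kept their direction and side of the threshold, 4 newly passed, 2 no longer passed (BCL3 without either RB-BC library) and 0 changed sign. The genes that newly passed were NFKB1 with DESeq2 and without DMSO 2, and RELA and REL without DMSO 2. The count of members called higher was 6 with every alternative that kept all libraries except DESeq2, where it was 7, and it ran from 5 to 9 with 1 library left out. None was called lower in any of these fits. Calls over all genes numbered 2214, and 1205 with library totals alone, where 65.6% of calls were upward against 53.3% with TMM. They numbered from 205 to 3648 with 1 library left out. In those fits calls ran from 0 to 4 for IKK genes, 0 to 4 for ubiquitin ligases, 2 to 4 for brakes, 2 to 5 for the non-canonical arm and 0 to 1 for the other IκB-like genes, and ubiquitin ligases had 4 with DESeq2. With 1 library left out its treatment has a single library, which is assumed to vary like the other pair. All 5 count ratios kept their direction, that of NFKBIA to RELA at 1.72 to 2.31 on the log2 scale. Per-length places changed for 3 members with RB-BC and 4 with DMSO when exons of all transcripts set the length. Same-numbered libraries did not deviate together (correlation −0.06 over 12219 genes). With 2 libraries per treatment, and DMSO 2 apart from the others, this cannot exclude that the numbers pair the samples. With the replicate block 6 members and 2114 genes were called. The cause of these changes was not tested. Every member had at least 288 counts in each library, so the spread between 2 libraries limits precision more than depth does.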
